A study of Mus musculus with 9 samples.

Results

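Smooth muscle cells and pericytes form the wall around the vessels of the heart, and 10 genes that mark them were followed here on 9 arrays. The genes were Cnn1, Tagln, Acta2, Myh11, Smtn, Lmod1 and Myocd for smooth muscle and Cspg4, Pdgfrb and Rgs5 for pericytes. All probe sets assigned to one of these symbols alone were taken, which gave 19 of the 34945 probe sets tested, and these 10 genes are among 18193 with a named probe set. The arrays held RNA of C57BL/6 mice at 2 months of age in 3 groups of 3. Mutant right atria came from Myh6-cre; COUP-TFIIflox/flox animals, in which Cre recombinase removes the nuclear receptor COUP-TFII (Nr2f2) from cells that use the Myh6 promoter, the cardiomyocytes. Control right atria and control ventricles came from COUP-TFIIflox/flox animals, which carry the same floxed alleles but no Cre, and whether a change is due to the lost gene or to the presence of Cre cannot be told apart. Values are log2 of the deposited intensity, and levels of different probe sets are not compared with each other.

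A smooth muscle cell contracts when smooth muscle myosin (Myh11) pulls on smooth muscle actin (Acta2), while calponin (Cnn1), transgelin (Tagln), smoothelin (Smtn) and leiomodin (Lmod1) bind the actin filaments. Many of these genes are switched on by serum response factor, which binds a DNA element called the CArG box, together with its coactivator myocardin (Myocd), which is also made in cardiomyocytes. Pericytes sit on capillaries. They carry the proteoglycan NG2 (Cspg4) and the receptor PDGFR-beta (Pdgfrb), through which endothelial PDGF-B recruits them, and Rgs5, which dampens signals from G-protein-coupled receptors.

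The promoters of 3 of the genes are shown because they stand for the patterns described: Cnn1, Acta2 and Cspg4. Each is the stretch of 250 bases before the gene's start in RefSeq on GRCm38.p6, and capitals mark CArG boxes with 1 G or C in the core of A and T. The windows lie at chr9:22099003-22099252 (plus strand), chr19:34255374-34255623 (minus strand) and chr9:56864854-56865103 (plus strand).
Cnn1: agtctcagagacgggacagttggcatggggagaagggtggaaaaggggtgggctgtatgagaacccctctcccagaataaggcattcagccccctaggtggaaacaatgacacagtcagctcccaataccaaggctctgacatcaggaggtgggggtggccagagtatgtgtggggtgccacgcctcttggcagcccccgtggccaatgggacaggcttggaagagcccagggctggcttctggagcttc
Acta2: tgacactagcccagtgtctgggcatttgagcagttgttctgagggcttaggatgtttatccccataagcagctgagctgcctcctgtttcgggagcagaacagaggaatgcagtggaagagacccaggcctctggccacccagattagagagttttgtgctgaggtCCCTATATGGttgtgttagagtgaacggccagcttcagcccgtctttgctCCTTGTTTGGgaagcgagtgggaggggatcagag
Cspg4: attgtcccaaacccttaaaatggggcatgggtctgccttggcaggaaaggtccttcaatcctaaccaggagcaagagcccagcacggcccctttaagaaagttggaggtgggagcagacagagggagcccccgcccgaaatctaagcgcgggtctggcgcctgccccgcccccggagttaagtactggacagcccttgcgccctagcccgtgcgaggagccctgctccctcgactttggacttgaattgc
Promoter windows were held for 6 of the 10 genes (Cnn1, Acta2, Smtn, Lmod1, Cspg4 and Rgs5). The CArG box searched is CC, a core of 6 letters and GG, a form that is the same on both strands. With a core of A and T only it was found in 0 of these 6 windows and in 1.47% of 32851 windows of all genes. With 1 G or C allowed in the core, a form chosen after the first search, Acta2 held 2 boxes, whose first bases lie 84 and 34 bases before the start, and the other 5 windows none, against 7.24% of all windows. The motif AGGTCA, bound by COUP-TFII and other nuclear receptors and searched on both strands, was in 0 of the 6 windows and in 14.0% of all. These matches describe letters in a short window and not binding.

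The arrays had near equal distributions, with a median intensity of 80.9 to 83.4. The brightest Nr2f2 probe set read 6.82, 6.62 and 6.82 in mutant atria, 7.53, 7.66 and 7.29 in control atria and 5.96, 5.34 and 5.74 in ventricles. It was lower in mutant than in control atria by -0.74 ± 0.15 (log2 ratio ± SE, limma adjusted p = 0.0113), as were 3 of its other 5 probe sets. Which exons are removed is not given, so these probe sets do not check the deletion. The groups also differed in RNA quality, liver transcripts and sex. The log2 difference between the 3' and 5' control probe sets of Gapdh lay highest in control atria (0.345 to 0.364), lower in mutant atria (0.214 to 0.304) and lowest in ventricles (0.153 to 0.227). For Actb it was also highest in control atria (1.39 to 1.49), while mutant atria (1.28 to 1.38) and ventricles (1.26 to 1.37) overlapped. The mean of 10 hepatocyte markers was 10.24, 9.55 and 7.61 in the control atria, and it lay between 5.21 and 5.42 on the other 6 arrays. Xist was high and Eif2s3y low in mutant replicate 1 and all 3 ventricles, and the reverse held in mutant replicates 2 and 3, while control atria replicates 1 and 3 had Xist at 12.73 and 10.91 and Eif2s3y at 6.35 and 9.53. Myh6, a defining gene of heart muscle, stood at 14.95, 14.97 and 14.93 in mutant atria, control atria and ventricles. These readings lie near the top of the range of the arrays, where differences can be compressed, so they do not show equal heart muscle content.

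Comparing mutant with control right atria asks how the atrium changes when its cardiomyocytes lose COUP-TFII. Cnn1 moved against the other marker genes. Its measured level was 10.4-fold lower in mutant atria, down to the dim part of the array, while 6 of the 10 genes rose, the 3 pericyte genes among them, and Acta2, Smtn and Lmod1 did not pass. Of all genes 6.92% rose and 8.99% fell. By probe set, 10 of 19 rose, 1 fell and 8 did not pass. Of all probe sets, 13.9% were called in this comparison, 5.86% as higher and 8.05% as lower. The median of the 19 was 0.66 against 0.02 over all 34945. In bulk tissue fewer cells of a type and less RNA per cell cannot be told apart. Over all probe sets the count of 4861 calls fell to 2714 without mutant replicate 2, 3049 without mutant replicate 3, 2934 without control atrium replicate 1 and 3002 without control atrium replicate 2. The 19 probe sets gave 8 to 13 calls with any 1 array left out.

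**Figure D1:**
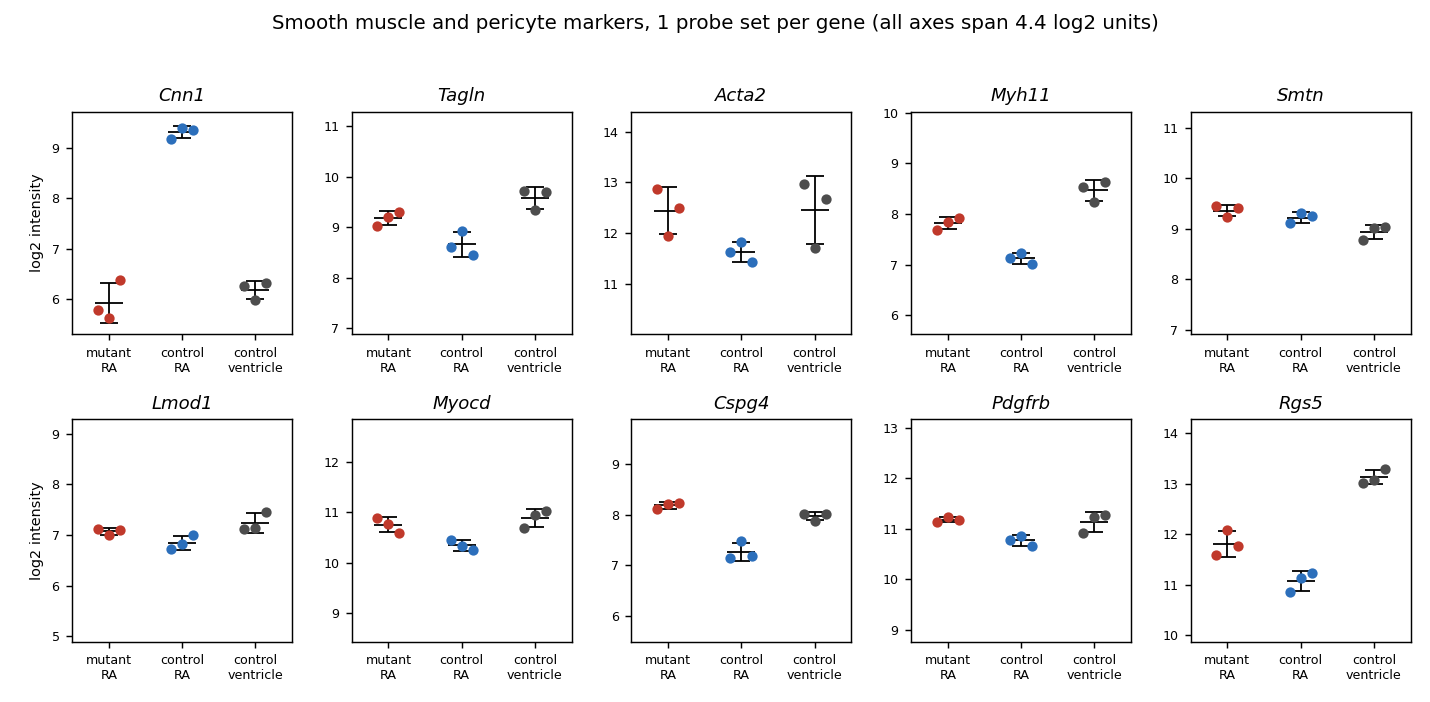
Log2 intensity of the 10 genes on 9 arrays (points, 3 per group), with the mean and SD of each group, for the probe set with the highest mean; RA is right atrium. Every vertical axis spans the same number of log2 units. Cnn1 is high in control right atria only, near 9.31, while Rgs5 climbs from control atria (11.07) through mutant atria (11.81) to ventricles (13.13).

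Cnn1, the calponin that binds actin and restrains myosin in smooth muscle, has 1 probe set (1417917_at). It read 9.18, 9.40 and 9.36 in control atria, 5.79, 5.63 and 6.38 in mutant atria and 6.27, 5.99 and 6.32 in ventricles. The control atria stood together and far above both other groups, and mutant atria and ventricles overlapped. Mutant atria were lower than control atria by -3.38 ± 0.18, with a 95% interval from -3.77 to -2.99 (adjusted p = 3.41e-06). Its mean lay at the 81.6th percentile of all probe sets in control atria, at the 37.7th in mutant atria and at the 41.9th in ventricles. No detection calls were used here, so the low levels are not shown to lie above background, and the folds may understate the difference. Only 17 of 34945 probe sets had a more negative ratio. The measured level in control ventricles was 8.70-fold lower than in control atria (-3.12 ± 0.18, adjusted p = 9.13e-07). Mutant atria and ventricles differed by -0.26 ± 0.18, an interval from -0.65 to 0.13 (adjusted p = 0.3), and without mutant replicate 3 by -0.49 (adjusted p = 0.0218).

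Liver transcripts were also highest in control atria, and they varied there. Control atrium replicate 3, with a hepatocyte mean of 7.61, had Cnn1 at 9.36, and replicate 1, with 10.24, had it at 9.18. With the hepatocyte mean as a covariate the Cnn1 ratio was -3.58 ± 0.47 (adjusted p = 0.0239). Mesothelial and epicardial markers, the genes of the cells that cover the heart, moved in the same direction as Cnn1. Their mean over 12 genes lay at 9.29 to 9.55 in the control group, at 7.83 to 7.98 in mutants and at 6.53 to 6.83 in ventricles. All 12 fell in mutant atria, with a median of -1.62 and a range from -2.75 to -0.80, the keratin Krt7 most (-2.75 ± 0.08). In all 12 the mean of mutant atria was above that of ventricles, by 0.55 to 2.26. The part of liver or mesothelial transcripts in the Cnn1 difference was not tested.

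**Figure D2:**
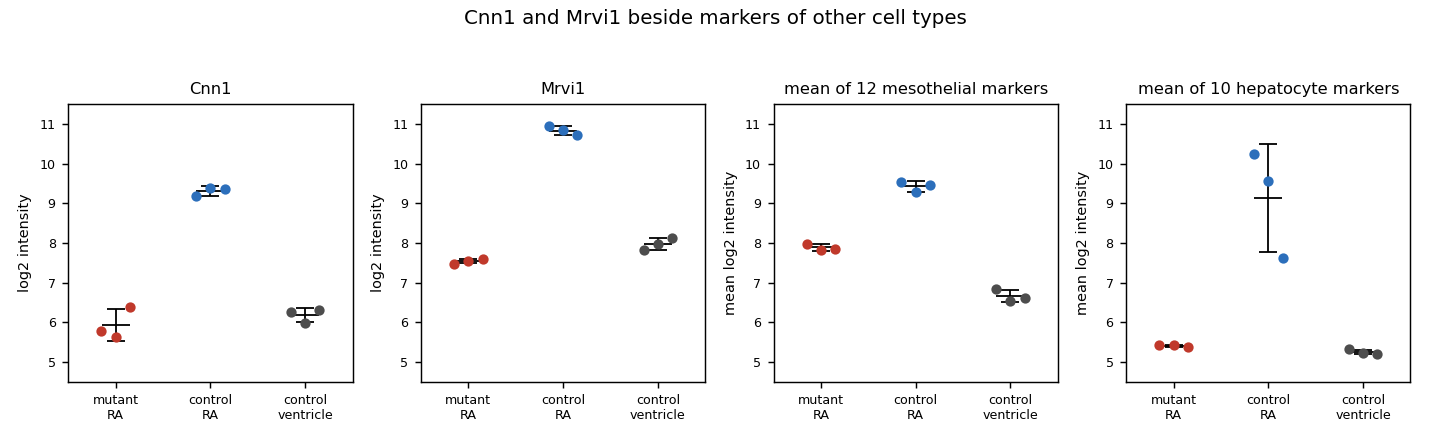
Log2 intensity of Cnn1 and Mrvi1 and the mean log2 intensity of mesothelial and hepatocyte markers, on 9 arrays in 3 groups (points), with group mean and SD; RA is right atrium. The control atria are highest in each panel, the hepatocyte mean spreads from 7.61 to 10.24 among them, and the mesothelial mean of mutant atria lies between both control tissues.

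Among the other contractile genes, Myh11 and Tagln rose. Myh11, the motor protein of smooth muscle, read 7.13, 7.22 and 7.01 in control atria, 7.69, 7.84 and 7.93 in mutant atria and 8.53, 8.24 and 8.64 in ventricles on its brighter probe set. The 3 groups did not overlap and stood in that order. Such gaps were common among all 34945 probe sets. All mutant atria exceeded all control atria on 5926, and all ventricles exceeded all control atria on 10747. On 8607 all mutant atria lay below all ventricles. Mutant atria were 1.62-fold higher than control atria (0.70 ± 0.11, adjusted p = 0.00316) and ventricles 2.55-fold (1.35 ± 0.11, adjusted p = 1.07e-05), and mutant atria were below ventricles (-0.65 ± 0.11, adjusted p = 0.00188). The other probe set of Myh11, among the dimmest 40%, gave 0.16 ± 0.08 in mutant atria (adjusted p = 0.213) and 0.25 ± 0.08 in ventricles (adjusted p = 0.0241).

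Tagln encodes transgelin, a relative of calponin that bundles actin. It read 8.61, 8.92 and 8.45 in control atria, 9.03, 9.21 and 9.30 in mutant atria and 9.72, 9.33 and 9.69 in ventricles, again in that order with no overlap between groups. The ratio of mutant to control atria was 0.52 ± 0.14 (adjusted p = 0.036) and that of ventricle to control atrium 0.92 ± 0.14 (adjusted p = 0.000571). The former call was lost without mutant replicate 2 (adjusted p = 0.101) or 3 (0.118) and without control atrium replicate 1 (0.108) or 3 (0.0942). Mutant atria differed from ventricles by -0.40 ± 0.14 (adjusted p = 0.0608), which passed without control atrium replicate 2 (0.0408) and without ventricle replicate 2 (-0.52, 0.0252).

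Acta2, the actin of smooth muscle, varied more within groups. Its brightest probe set (1416454_s_at, of a kind that can bind transcripts of related genes, here other actins) read 11.62, 11.82 and 11.42 in control atria. It read 12.88, 11.95 and 12.50 in mutant atria and 12.98, 11.69 and 12.68 in ventricles. Replicate 2 was the lowest of the mutant atria and of the ventricles, and the mutant atria stood above the control atria without overlap. The ratios of 0.82 ± 0.32 for mutant atria (adjusted p = 0.118) and 0.83 ± 0.32 for ventricles (adjusted p = 0.0534) did not pass. Without ventricle replicate 2, which widens the shared spread, they were 0.82 (adjusted p = 0.0387) and 1.21 (0.00443), and the ventricle ratio also passed without mutant replicate 1 (0.0463) or 2 (0.041). The other 2 probe sets, both among the dimmest 40%, gave 0.95 ± 0.30 (adjusted p = 0.0652) and 0.84 ± 0.35 (0.147) in mutant atria. Without mutant replicate 2 they passed, at 1.26 (adjusted p = 0.0231) and 1.28 (0.0157), and the former also without ventricle replicate 2 (0.0273). In ventricles they gave 0.72 ± 0.30 (adjusted p = 0.0742) and 0.49 ± 0.35 (0.266), and the former passed without mutant replicate 2 (0.0359) or ventricle replicate 2 (1.05, 0.0105). Fitted on the 2 compared groups alone, both passed in ventricles (0.0462 and 0.011) and the former in mutant atria (0.0452). With replicate blocks the brightest probe set (0.0332) and the former of the other 2 (0.0286) passed in ventricles.

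Smtn and Lmod1 moved little in the mutant atria. Smoothelin read 9.11, 9.31 and 9.25 in control atria, 9.45, 9.23 and 9.40 in mutant atria and 8.78, 9.01 and 9.03 in ventricles. Mutant and control atria overlapped (0.14 ± 0.09, adjusted p = 0.371), and mutant atria exceeded ventricles by 0.42 ± 0.09 (adjusted p = 0.00897). Besides Cnn1, it was the only one of the 10 genes lower in ventricle than in control atrium (-0.28 ± 0.09, adjusted p = 0.0336). It no longer passed without control atrium replicate 2 (-0.23, adjusted p = 0.11) or 3 (0.0751), without ventricle replicate 1 (-0.20, 0.113) and with quantile normalisation (-0.17, 0.156). Leiomodin, which starts actin filaments, read 6.72, 6.82 and 6.998 in control atria, 7.11, 6.99 and 7.10 in mutant atria and 7.11, 7.13 and 7.46 in ventricles. Its ratios were 0.22 ± 0.11 in mutant atria (adjusted p = 0.198) and 0.39 ± 0.11 in ventricles (0.0141, and 0.0555 without control atrium replicate 1). Mutant atria and ventricles differed by -0.17 ± 0.11 (adjusted p = 0.282). The highest mutant atrium (7.113) and the lowest ventricle (7.114) read almost the same.

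Myocd, the coactivator, read 10.46, 10.34 and 10.25 in control atria, 10.89, 10.78 and 10.59 in mutant atria and 10.70, 10.94 and 11.03 in ventricles on its brighter probe set. Mutant atria and ventricles overlapped, and both stood above the control atria. The rise in mutant atria was 0.41 ± 0.11 (adjusted p = 0.0344), and it was lost without mutant replicate 1 (adjusted p = 0.098) or 2 (0.0994) and without control atrium replicate 1 (0.0501), 2 (0.0933) or 3 (0.0881). Its other probe set gave 0.25 ± 0.10 (adjusted p = 0.145). In ventricles both probe sets were higher, by 0.54 ± 0.11 (adjusted p = 0.00272) and 0.70 ± 0.10 (0.000453).

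The 3 pericyte genes were measured by 8 probe sets, 4 of them of Rgs5. Of the 8, 7 rose in mutant atria and none fell, where 5.86% of all probe sets rose and 8.05% fell. On each of the 8 all mutant atria exceeded all control atria. Arrays of these groups did not overlap on 34.3% of all probe sets, both directions counted. Mutant atria were the higher group on 5926 of the 34945. Cspg4, the NG2 proteoglycan, rose most. It read 7.14, 7.48 and 7.18 in control atria, 8.11, 8.21 and 8.23 in mutant atria and 8.02, 7.87 and 8.01 in ventricles, so that the mutant atria were the highest group. The ratio of mutant to control atria was 0.92 ± 0.10 (1.89-fold, adjusted p = 0.000276) and that of ventricles 0.70 ± 0.10 (adjusted p = 0.000273). The other Cspg4 probe set rose 2.69-fold in mutant atria (1.43 ± 0.15, adjusted p = 0.00034), to 7.997, 8.52 and 8.43 from 6.997, 7.05 and 6.61. In ventricles it read 7.45, 7.29 and 7.55, which was 0.54 ± 0.15 above control atria (adjusted p = 0.0158). This did not pass once control atrium replicate 3 (0.41, adjusted p = 0.0507) or ventricle replicate 3 (0.49, 0.0537) was left out. The probe sets disagreed on mutant atrium against ventricle, with 0.89 ± 0.15 for the dimmer (adjusted p = 0.00207) and 0.22 ± 0.10 for the brighter one (adjusted p = 0.122).

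Pdgfrb, the receptor for PDGF-B, changed by less. Its brighter probe set read 10.78, 10.87 and 10.65 in control atria, 11.13, 11.24 and 11.18 in mutant atria and 10.91, 11.23 and 11.27 in ventricles. Mutant atria were 1.33-fold higher than control atria (0.41 ± 0.10, adjusted p = 0.0242) and the other probe set gave 0.40 ± 0.07 (adjusted p = 0.00521). The former call was lost without mutant replicate 2 (adjusted p = 0.0831) or 3 (0.0688) and without control atrium replicate 1 (0.0644) or 3 (0.0663). Ventricles exceeded control atria by 0.37 ± 0.10 (adjusted p = 0.014, and 0.0506 without ventricle replicate 3) and 0.41 ± 0.07 (0.00118). Mutant atria and ventricles differed by 0.05 ± 0.10, an interval from -0.18 to 0.27 (adjusted p = 0.768).

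Of the pericyte genes, Rgs5 differed most between ventricle and control atrium. It read 10.86, 11.13 and 11.24 in control atria, 11.58, 12.09 and 11.77 in mutant atria and 13.02, 13.08 and 13.29 in ventricles on its brightest probe set. Ventricles were 4.15-fold above control atria (2.05 ± 0.14, adjusted p = 3.28e-06) and mutant atria 1.67-fold (0.74 ± 0.14, adjusted p = 0.00815). The groups did not overlap, and mutant atria stayed below ventricles by -1.31 ± 0.14 (adjusted p = 0.000114). Of the other 3 probe sets, 2 rose in mutant atria (1.26 ± 0.24, adjusted p = 0.0082, and 0.90 ± 0.15, adjusted p = 0.00478). The latter (1420942_s_at) is of the kind described for Acta2, which can bind transcripts of related genes. The probe set 1420940_x_at, whose name also marks cross-binding, gave 0.66 ± 0.21 (adjusted p = 0.0649), and 0.89 (0.0128) without mutant replicate 1. In ventricles these 3 were higher by 2.63 ± 0.24, 3.03 ± 0.15 and 2.18 ± 0.21, so the size of the ventricular excess depends on the probe set.

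**Figure D3:**
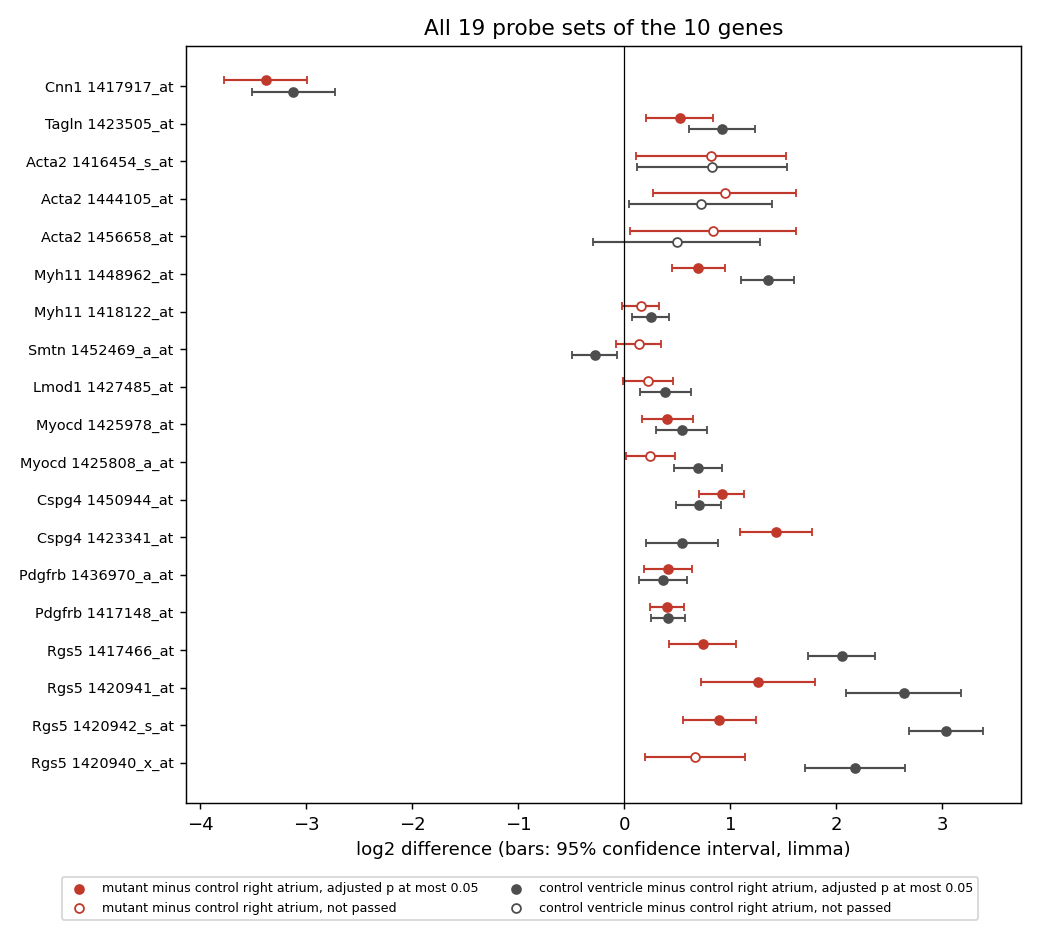
Log2 differences of all 19 probe sets from control right atria, for mutant right atria (red) and control ventricles (grey), with 95% confidence intervals from limma; filled points passed an adjusted p of 0.05. The comparisons share the control atria. Cnn1 lies near -3.38 and -3.12, and the 8 pericyte probe sets lie to the right of 0 in both.

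The fall of Cnn1 was set against each pericyte gene as a ratio within each array. Log2 of Cnn1 minus log2 of Cspg4 was 2.04, 1.92 and 2.18 in control atria and -2.32, -2.58 and -1.86 in mutant atria, a shift of -4.30. The shift against Pdgfrb was -3.80, from a mean of -1.46 to -5.25, and against Rgs5 -4.12, from -1.76 to -5.88. In each of the 3 ratios all mutant atria lay below all control atria. The Cnn1 fall, known when this contrast was chosen, makes up most of each shift, so the shifts are a description with no test.

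The comparison of control ventricle with control atrium, which shares the control atria with the one above, sets the chambers side by side without the mutation. These groups also differed in liver transcripts, sex and RNA quality, which cannot be told apart from chamber here. Of the 19 probe sets 14 were higher in ventricle, 2 lower and 3 not called, against 25.7% higher and 21.5% lower over all probe sets, and 47.2% called in all. All 8 pericyte probe sets were higher. With the mean of Y-linked genes as a covariate 12 of the 19 passed, 11 higher and 1 lower, and 12448 passed over all probe sets. Lost under it were Smtn (adjusted p = 0.117), Lmod1 (0.0596), the brighter probe set of Pdgfrb (0.0513) and the dimmer one of Myh11 (0.0813). By gene, 7 of 10 were higher, Cnn1 and Smtn were lower and Acta2 did not pass, where 28.2% of all genes were higher, 23.1% lower and 51.3% called in all.

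Between mutant atria and control ventricles 8 of the 19 probe sets were called, 2 higher in mutant atria and 6 lower, against 27.5% of all probe sets (13.4% higher and 14.1% lower). The 6 lower ones were the 4 of Rgs5 and 1 each of Myh11 and Myocd, and the 2 higher ones were 1 of Cspg4 and the probe set of Smtn. The Myocd probe set was the dimmer one (-0.45 ± 0.10, adjusted p = 0.00917). For Cnn1, Acta2, Pdgfrb and Lmod1 no probe set passed here, which does not show that the levels are equal.

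The other genes of the contractile apparatus were divided. Of 26 such genes 3 rose, 6 fell and 17 did not pass in mutant atria, with a median of -0.06 against 0.03 over all genes, of which 6.92% rose and 8.99% fell. Several of them, such as Tpm1, Des and Vcl, are also made in heart muscle. Mrvi1, a substrate of the cGMP-dependent kinase that holds back calcium release, fell by 3.29 ± 0.09 (adjusted p = 5.68e-08), the most of the list, and its other probe set fell by 3.20 ± 0.08. It read 10.84 ± 0.12 (mean ± SD, n = 3) in control atria, 7.55 ± 0.06 in mutant atria and 7.98 ± 0.15 in ventricles, an order like that of Cnn1. Tpm2, the beta tropomyosin, fell by 1.93 ± 0.16, the intermediate filament gene Synm by 1.46 ± 0.14 and the LIM protein gene Csrp1 by 0.55 ± 0.08 (adjusted p of 7.49e-05, 0.000142 and 0.00203). The others that fell, named after their values were seen, were Myl9, the light chain of smooth muscle myosin (-1.46 ± 0.30, adjusted p = 0.0111), and Cald1, caldesmon (-0.34 ± 0.09, 0.0392, with 4 other probe sets that did not pass). The 3 that rose, also named afterwards, were the enteric actin Actg2 (0.41 ± 0.09), Vcl (0.29 ± 0.07, with another probe set that did not pass) and Aoc3 (0.28 ± 0.08). Actg2 stood lowest in control atria (6.82) and highest in ventricles (7.66), the order seen for Myh11. Dimmer probe sets of Tpm1 (0.55 ± 0.07) and Ppp1r12b (0.51 ± 0.15) rose too, while the brightest probe sets of these genes did not pass. In ventricle against control atrium 8 of the 26 were higher and 11 lower, where 28.2% of all genes were higher and 23.1% lower.

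Of the relatives of Cnn1 and Tagln, Cnn3 fell by 0.30 ± 0.08 (adjusted p = 0.0354) on its brightest probe set, and its other 5 probe sets did not pass. Cnn2 (0.23 ± 0.12, adjusted p = 0.231), Tagln2 (-0.15 ± 0.10, 0.364) and Tagln3 (-0.18 ± 0.10, 0.235) did not pass. None came near the size of the Cnn1 difference. In the list of factors that work with or against myocardin, 4 of 11 fell by their brightest probe set, none rose and 7 did not pass, with a median of -0.17, where 8.99% of all genes fell. A dimmer probe set of Gata6 rose (0.44 ± 0.09, adjusted p = 0.00963), while its brightest gave -0.17 ± 0.09 (0.226). The 4 were Klf4, which represses smooth muscle genes (-0.60 ± 0.13, adjusted p = 0.0152), Foxo4 (-0.58 ± 0.11, 0.00884), Tead1 (-0.33 ± 0.07, 0.0135) and the myocardin relative Mrtfb (-0.25 ± 0.07, 0.0467). For each of these 4 the other probe sets, 1 to 2 per gene, did not pass. Srf itself, the DNA-binding partner, averaged 9.56 ± 0.17 (mutant) and 9.76 ± 0.09 (control atria) (adjusted p = 0.278).

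Other pericyte markers were divided. Of 18 genes 3 rose, 3 fell and 12 did not pass in mutant atria, with a median of 0.13, where 6.92% of all genes rose and 8.99% fell. In ventricle against control atrium 10 were higher and 4 lower, where 28.2% and 23.1% of all genes were. The regulatory subunit of the ATP-sensitive potassium channel, Abcc9, rose by 1.52 ± 0.13 (adjusted p = 7.45e-05), as it did on its other 2 probe sets. Its partner Kcnj8, named after its value was seen, gave 0.40 ± 0.13 (adjusted p = 0.0667). Both are made in heart muscle too. The connexin gene Gja4 rose by 0.85 ± 0.13 (adjusted p = 0.00278), and Higd1b, named after its value was seen, by 1.15 ± 0.20 (0.00544). The subunits of the nitric oxide receptor guanylate cyclase fell, Gucy1a1 by 1.17 ± 0.11 and Gucy1b1 by 0.68 ± 0.09 (adjusted p of 0.000173 and 0.00109), each on all of its probe sets. Mcam, an adhesion molecule and also named afterwards, fell by 0.58 ± 0.12 (adjusted p = 0.0119).

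Of the ligands of Pdgfrb and its sister receptor, 1 of 5 genes rose. That was Pdgfb, made by endothelium to recruit pericytes, at 0.49 ± 0.13 (adjusted p = 0.0338, and 0.106 on its other probe set). Its level was 8.07 ± 0.08 in control atria, 8.56 ± 0.24 in mutant atria and 9.11 ± 0.19 in ventricles. Pdgfra (0.28 ± 0.10), Pdgfc (-0.29 ± 0.19) and Pdgfa (-0.04 ± 0.09) did not pass. Among 8 relatives of Rgs5 none passed in mutant atria by the brightest probe set, where Rgs4 gave 0.53 ± 0.19 (adjusted p = 0.101). A dimmer probe set of Rgs4 rose (0.37 ± 0.09, adjusted p = 0.0218), and a dimmer one of Rgs3 fell (-0.64 ± 0.13, 0.00929). In ventricles Rgs4 was 1.78 higher on the log2 scale (adjusted p = 6.48e-05), while Rgs2 was lower by -1.06 (0.000306).

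**Figure D4:**
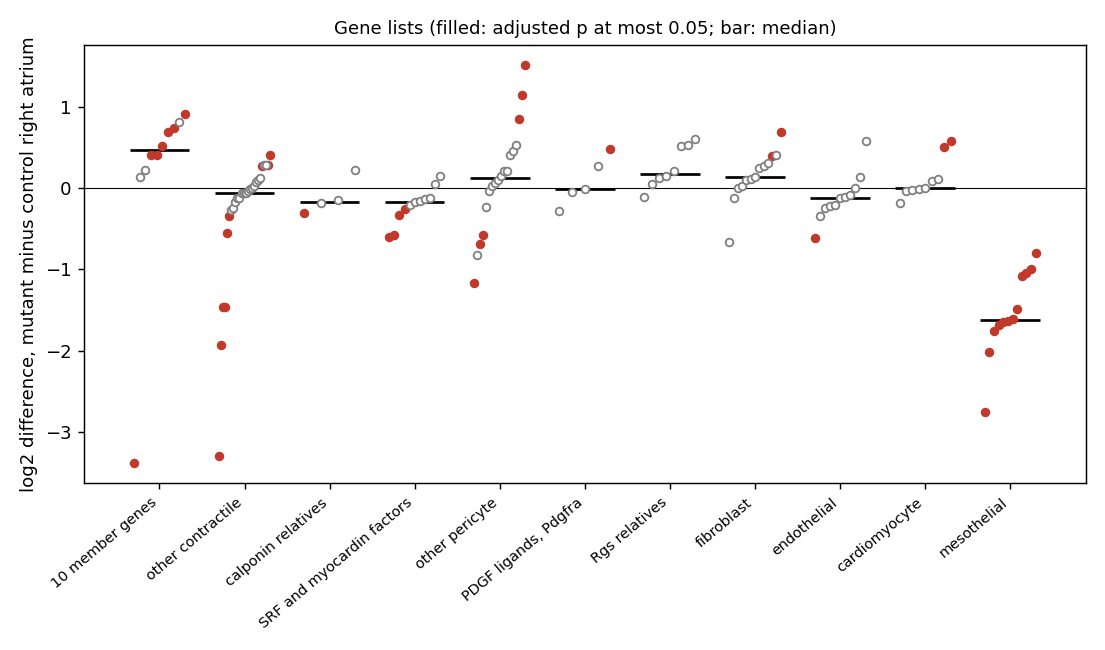
Log2 difference of mutant minus control right atrium for the genes of each list (points, 1 probe set per gene), filled where the adjusted p is at most 0.05, with the list's median as a bar. Cnn1 and Mrvi1 lie near -3.38 and -3.29, apart from the other contractile genes, and the mesothelial markers all lie below 0.

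Markers of the other cell types of the tissue gave the following in mutant against control atria, where 15.9% of all genes were called. By direction, 6.92% of all genes rose and 8.99% fell. Fibroblast markers rose in 2 of 13 cases, Thy1 (0.69 ± 0.10) and Lum (0.40 ± 0.10), with a median of 0.14. Endothelial markers fell in 1 of 11, Tek (-0.61 ± 0.13), with a median of -0.12, and rose in none. Cardiomyocyte markers rose in 2 of 9, Pln and Mybpc3, and macrophage markers in 4 of 6. Hepatocyte markers fell in 10 of 10, and of 2 adipocyte markers Adipoq fell and Ucp1 rose. With the hepatocyte mean as a covariate Cnn1 was the 1 probe set of the 19 that passed, and 94 passed over all probe sets. Because this covariate separates control atria from the other groups, the median SE grew from 0.0912 to 0.225. Under it the brightest probe sets gave 0.91 for Tagln, 0.92 for Myh11, 0.66 for Myocd, 0.99 for Cspg4, 0.62 for Pdgfrb and 0.26 for Rgs5.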

How the data were processed

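Total RNA of 9 heart samples was labelled with the 3' IVT Express Kit and hybridised to Affymetrix mouse arrays, per the labels' protocols. The authors deposited intensity values per probe set, made with RMA per the submitters' processing notes. RMA corrects background and normalises between arrays by quantiles, which can compress differences near both ends of the range. Its software and version are not given in the sources used here. Near equal quartiles and values up to 35272 show a linear scale, so log2 was taken.

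The file lists 45101 probe sets. Dropped were 64 controls, 9160 with no gene name and 932 that name more than 1 gene. The remaining 34945 entered a linear model with a mean per group over 9 arrays (limma 3.58.1, lmFit and eBayes, R 4.3.3). Residual degrees of freedom were 6, to which the prior added 3.83. P-values are 2-sided with Benjamini-Hochberg adjustment over all 34945 and a threshold of 0.05, which is what rose, fell, passed and called mean. A gene in a list is represented by the probe set with the highest mean. List genes named are the 4 with the smallest p in mutant against control atria, and others are said to be named after their values were seen. The 10 genes, the lists and the tests were chosen with earlier results of these data known. Likeness to Cnn1 and Cspg4 was ranked among genes with a log2 range of at least 1. The titles call the samples of a group biological replicates and do not say whether animals were pooled. Depth does not apply to arrays, and 3 per group limit the precision.

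In a simulated comparison of mutant with control atria over 34945 probe sets, 60 of 100 changed 1.5-fold and 88 of 100 changed 2-fold were recovered, with 8 false among 156 calls. No other probe set was changed, and group differences in liver transcripts, sex or RNA quality were not simulated. The rates therefore hold for that setting and not for the calls on the real arrays. The fits were repeated with quantile normalisation, with 1 probe set per gene, without the dimmest 40% of probe sets, on the compared groups alone, with a variance trend (robust), with replicate blocks, with hepatocyte or Y-linked covariates, and without each array. Python 3.11.15, pandas 2.3.3 and matplotlib 3.10.9 made the figures.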

Additional observations from a re-analysis of the deposited data

How the results depend on the processing

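Cnn1 kept its direction and its call in mutant and in ventricle against control atrium under all 17 alternatives, with ratios of -3.61 to -3.23 and -3.33 to -2.95. Its difference between mutant atrium and ventricle was -0.49 to -0.11 with 1 array left out, past the threshold only without mutant replicate 3. With 1 array left out, the calls over all probe sets in mutant against control atrium numbered 2714 to 4645. Fitting 1 probe set per gene gave 7, 9 and 3 calls for the 10 genes in mutant against control atrium, ventricle against control atrium and mutant atrium against ventricle, and 3192, 9615 and 5956 over all genes, since fewer rows were tested. With the hepatocyte covariate 1 and 4 of the 19 probe sets passed in the first 2 comparisons, and 94 and 1472 of all. Under it the Lmod1 ratio of ventricle to control atrium turned to -0.027. Over the other 18 probe sets, 882 alternative values were computed, of which 53 lost a call, 22 gained one and 1 reversed. The shifts of Cnn1 against the pericyte genes ranged from -4.56 to -3.62 over their alternatives. The labels number the replicates but do not say that a number pairs samples. Deviations of same-numbered samples correlated at -0.10 to 0.11, and in 8 of 18 cases a sample correlated best with its own number, so the pairing was not used. With the replicate block 10 of the 19 probe sets passed in mutant against control atrium, with Tagln (adjusted p = 0.0722) and Myocd (0.0659) lost and a dim probe set of Acta2 gained (0.0296), and 4226 passed in all.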

Other observations

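The genes whose pattern over the 9 arrays was most like that of Cnn1, among 2914 compared, were Pum3 (Pearson r = 0.99), Mrvi1 (0.99), Cited4 (0.99), Dcbld2 (0.99), Rarres1 (0.99) and 4930512H18Rik (0.99). The arrays fall into 3 groups, so these values mostly rank how alike the group means are, and they carry no p. Each of the 6 had its highest mean in control atria. In Mrvi1 the mutant atria also lay below the ventricles, by -0.43 (adjusted p = 0.00652). Cited4, a transcriptional cofactor, stood at 8.83 in control atria, 7.41 in mutant atria and 7.44 in ventricles, and Pum3 at 12.24, 10.27 and 10.15. Most like Cspg4 were Msrb1 (0.99), Masp1 (0.98), Ephb3 (0.98), Yae1d1 (0.97), Myh7 (0.96) and Slc43a2 (0.96). Masp1, a protease of the complement system, stood at 5.75 in control atria, 9.32 in mutant atria and 8.30 in ventricles, and Myh7, the slow myosin of heart muscle, at 8.497, 12.08 and 11.08. Like Cspg4, both had their highest mean in mutant atria.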
